A study of Mus musculus with 8 samples.

Results

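The change in polyadenylated RNA between the 1-cell and the 2-cell stage of the mouse embryo was described over all genes, by setting the 4 libraries of 2-cell embryos against the 4 libraries of 1-cell embryos. These are 8 of the 8 libraries of the series, and the members were chosen by the stage in their labels alone. All embryos came from B6CBA F1 crosses and all were injected as zygotes: with mRNA for mCherry, a fluorescent protein that served as the control, with mRNA for Snrpb, with mRNA for Snrpd2, or with both of these together. Snrpb and Snrpd2 encode Sm proteins of the spliceosome, and the 2 genes were left out of every count below because their injected mRNA cannot be told apart from the embryo's own. The 1-cell embryos were collected 5 h and the 2-cell embryos 24 h after injection. Each library pooled 40 embryos from 3 independent experiments, and each of the 4 injections had 1 library at each stage. No uninjected embryos were used here. The 4 libraries of a stage therefore differ in what was injected, and p-values measure the spread between such libraries, not between replicate pools of 1 condition. Because a library is a pool of whole embryos, a change in RNA per embryo, in poly(A) tail length and in the makeup of the pool cannot be told apart.

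In the mouse, the fertilised egg starts with mRNA made by the oocyte. Much of this maternal mRNA is deadenylated and degraded over the first division, while the embryo's own genome becomes active in steps, with the main wave at the 2-cell stage. Libraries made from polyadenylated RNA follow both processes, and also see a stored mRNA appear when its tail is lengthened or disappear when its tail is shortened. Levels are given as cRPKM, reads per kilobase of effective gene length scaled to the library total. Fold and log2 changes are the fitted 2-cell over 1-cell changes of an edgeR model with injection and stage as terms. In lists of 4 values, the order is mCherry, Snrpb, Snrpd2 and both.

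The libraries held between 39492734 and 59979046 counted reads. Over the genes tested, log2 levels correlated between 0.99 and 0.996 among the 1-cell libraries, between 0.987 and 0.992 among the 2-cell libraries, and between 0.851 and 0.881 across stages, as a description with n = 8 libraries. Of 13 oocyte and egg markers, 12 fell and 1 rose, and their summed level was 5520 to 6020 cRPKM in the 1-cell and 3190 to 3680 cRPKM in the 2-cell libraries. Of 12 markers of the 2-cell stage, 9 were matched, of which 8 rose and Sp110 fell, and their sum went from 72.3 to 103 cRPKM up to 313 to 331 cRPKM. Markers of blood summed to 2.34 to 5.07 and then 6.38 to 18.1 cRPKM, led at the 2-cell stage by the lysozyme gene Lyz2, while Hbb-bs had 0 reads in all 8 libraries. Markers of fibroblasts went from 0.39 to 0.68 up to 2.2 to 3.24 cRPKM in sum, with 2 of 3 tested members higher and 1 lower, Col1a2 and Lum at 0 reads in the 1-cell and Col3a1 at 0 in the 2-cell libraries. Cumulus and granulosa markers summed to 26.1 to 47.9 and then 19.8 to 27.6 cRPKM, with 5 of 11 tested members lower, 2 higher, and Pgr at 0 reads in the 1-cell libraries. Oviduct epithelium markers went from 44.2 to 64.3 up to 81.5 to 105 cRPKM, and sperm and spermatid markers from 29.8 to 47.6 up to 159 to 190 cRPKM, the latter through Odf2, a centriole gene also used by other cells, while Tnp1 had 0 reads in the 1-cell and Tnp2 in the 2-cell libraries. The part of these other cell types in the results was not tested.

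Most of the tested genes changed between the stages, about as many up as down, but rises and falls were of different kinds. Of 15398 genes tested, 5728 (37.2%) were higher and 5270 (34.2%) lower at the 2-cell stage by edgeR's quasi-likelihood test at an adjusted p of 0.05, and 4400 were not called. These shares, 37.2% and 34.2%, are the background against which each group of genes below is read. More abundant genes fell more often: at a mean level of 10 to 100 cRPKM, 26.9% were higher and 52.2% lower, with a median change of -0.38. Rises were large and mostly of rare transcripts: the median rise was 2.1 on the log2 scale, 922 genes rose at least 32-fold, and the genes that rose had a median level of 0.478 cRPKM at the 1-cell and 3.63 cRPKM at the 2-cell stage. Falls were smaller and mostly of abundant ones: the median fall was -1.21, 1 gene fell at least 32-fold, and the genes that fell went from a median of 14.2 to 6.62 cRPKM. At least 2-fold changes were made by 4324 of the genes that rose and 3269 of those that fell. Among the called genes, 5563 of the higher (97.1%) and 5164 of the lower (98%) moved the same way in all 4 injections. The calls were made on these same 4 pairs, which favours genes whose pairs agree, so these shares are a description.

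**Figure D1:**
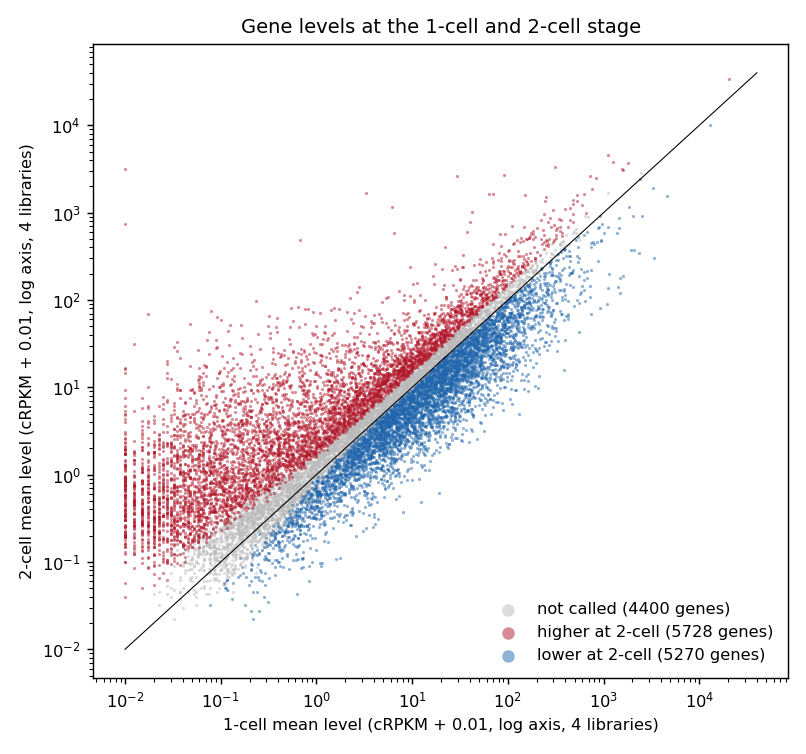
Mean level of each tested gene over the 4 1-cell libraries (x axis) and the 4 2-cell libraries (y axis), in cRPKM with 0.01 added, on log axes; colours mark the 5728 genes called higher, the 5270 called lower and the 4400 not called, and the line marks equal levels. Genes called higher spread far above the line at low 1-cell levels, and genes called lower form a narrower band below it at high 1-cell levels.

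The split into higher and lower genes depends on how the libraries are scaled. With the TMM scaling used here 52.1% of the called genes were higher, and with scaling to library totals 62.2% (6832 higher, 4157 lower), as the median change of all tested genes moved from 0.065 to 0.344 on the log2 scale. The cRPKM values are scaled to library totals, so a gene with no change in the model has a cRPKM about 0.28 log2 units higher at the 2-cell stage, the difference of 0.279 between those medians. No source used here names a spiked-in standard or gives total RNA per embryo. Gene groups are therefore described by their median minus that of all genes, called the relative median below.

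Many genes went from near absence to a clear level, and almost none made the opposite move. A mean level under 0.1 cRPKM at the 1-cell stage and at least 1 cRPKM at the 2-cell stage was found for 688 genes, of which 646 were called higher and 76 had 0 reads in all 4 1-cell libraries. The reverse was found for 7 genes, of which 4 were called lower: Ces1d, Zfp157, Baiap3 and Trim30d, named because so few qualified. The other 3, Gm4724, BC037034 and a gene without a symbol, were not called and had 1 read in all at the 1-cell stage and 0 at the 2-cell stage, so their level rests on that read. Among genes that appeared, Obox6, a homeobox gene of the early embryo, had 0.17, 0.03, 0.13 and 0.03 cRPKM at the 1-cell and 58.13, 56.05, 61.74 and 59.28 cRPKM at the 2-cell stage (523-fold, adjusted p = 1.94e-08). Trim43b, a member of a family of tripartite motif genes of early embryos, had 2 reads over the 1-cell libraries and 1648 over the 2-cell libraries. Its level there was 74.7 ± 3.48 cRPKM (SD, n = 4), which rests on an effective length of 132 bases. Neither gene overlapped between the stages in any library. Genes better known from later tissues appeared as well, such as the neurofilament gene Nefl, at 0.08 ± 0.0294 and 28.5 ± 6.39 cRPKM, and the tight junction gene Cldn6, at 0.0925 ± 0.0479 and 22.9 ± 2.41 cRPKM (SD, n = 4 each). These 4 genes were picked after their values were seen.

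The number of genes at or above 1 cRPKM rose from 9917 ± 128.7 to 11596 ± 98.6 (SD, n = 4 each), with no overlap between stages. An exact two-sided permutation test over the libraries gave p = 0.0286, the smallest value that 4 against 4 libraries allow. After Benjamini-Hochberg adjustment over 6 such library measures this was 0.0343. Unlike the gene model, this test did not pair the libraries by injection, here and for the other library measures, and its p-values depend on that. The 10 genes with most reads took 13.7% ± 1.73 of reads at the 1-cell and 18.5% ± 0.52 at the 2-cell stage (exact permutation p = 0.0286, adjusted p = 0.0343, n = 4 each). This rise was that of 1 gene, Ccdc82, since the other 9 took 5.71% ± 0.355 and then 5.36% ± 0.314 of reads (SD, n = 4). Among the 816 genes with a mean of at least 100 cRPKM at the 1-cell stage, 550 (67.4%) were lower and 135 (16.5%) higher at the 2-cell stage. A gene chosen for a high 1-cell level can fall more easily than rise, so this share is a description.

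The transcripts that gained most in absolute level were mostly already abundant in the zygote. Ccdc82, a coiled-coil gene, gained most: it took 10.8%, 7.61%, 6.12% and 7.56% of reads at the 1-cell stage and 13.1%, 12.9%, 13.6% and 12.8% at the 2-cell stage. Its fitted rise was 1.4-fold (log2 0.48, SE 0.14, edgeR adjusted p = 0.0091), and in mCherry embryos its own log2 change was 0.07 against 0.49 to 0.84 in the other injections. Tcl1, a co-activator of the AKT kinase, had 573.83, 1324.55, 1588.11 and 977.87 cRPKM at the 1-cell and 5447.34, 3815.1, 4789.4 and 4360.16 cRPKM at the 2-cell stage, a 3.58-fold rise (log2 1.84, SE 0.27, adjusted p = 0.000144). All 2-cell libraries lay above all 1-cell libraries, and the mCherry library was the lowest at the first stage and the highest at the second. Mphosph6, which encodes a cofactor of the RNA exosome, had 172.83, 272.33, 540.78 and 243.94 and then 3740.58, 3469.21, 3309.32 and 2931.19 cRPKM (9.85-fold, adjusted p = 1.97e-06). Omt2b, an oocyte maturation gene, had 88.09, 84.45, 112.87 and 75.28 and then 2778.89, 2614.3, 2932.66 and 2457.73 cRPKM (24.9-fold, adjusted p = 1.44e-08), and its own log2 changes in the 4 injections stayed within 4.38 to 4.79. Btg4, an adaptor that brings the CCR4-NOT deadenylase to maternal mRNA, rose 1.7-fold from 1819 ± 108.5 to 3739 ± 82.8 cRPKM, and Oog3, an oogenesin of the PRAME-like family, 3.05-fold from 728.4 ± 170.5 to 2641 ± 156.7 cRPKM (SD, n = 4). E330034G19Rik, a gene known from a cDNA clone, rose 2.61-fold. For 3 of the 10 largest gains the level in cRPKM rests on a short effective length or few reads: mt-Atp6 had an effective length of 83 bases, Gm6055 of 3 bases, and Gm2016 had 449 reads in all, 6 of them at the 1-cell stage.

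The transcripts that lost most were among the most abundant of the zygote. Zbed3, whose zinc finger protein belongs to the subcortical maternal complex, had 11997.07, 13153.47, 13725.9 and 12872.98 cRPKM at the 1-cell and 11319.85, 9876.94, 9250.79 and 9820.74 cRPKM at the 2-cell stage (1.56-fold lower, adjusted p = 0.00101). Slbp, the stem-loop binding protein of histone mRNA, had 1915.78, 2292.08, 2189.29 and 1833.2 and then 354.49, 286.2, 466.79 and 400.45 cRPKM (6.69-fold lower, adjusted p = 2.53e-07). Rbbp7, a histone-binding subunit of several chromatin complexes, fell 6.39-fold: it had 1782.31, 2170.46, 2032.43 and 1805.42 and then 370.46, 323.76, 398.97 and 384.26 cRPKM. For each of these 3 genes the stages did not overlap, as a description of genes chosen for a large loss. Ldhb, the lactate dehydrogenase subunit B, fell 3.37-fold from 2523 ± 247.9 to 912.9 ± 136.1 cRPKM, and Bcl2l10, a BCL2 family gene of oocytes, 2.08-fold from 3321 ± 693.1 to 1914 ± 174.7 cRPKM. The F-box gene Fbxw24 and the oligoadenylate synthetase-like gene Oas1d each fell 10.1-fold, and E330021D16Rik fell 8.19-fold. Obox1 and Obox2, oocyte homeobox genes, fell 3.63-fold and 13.4-fold, but their effective lengths of 18 and 45 bases make their levels of 4656 and 3361 cRPKM at the 1-cell stage uncertain, and both belong to a family of near-identical copies.

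The promoters of the genes with the largest gains, losses, rises and falls are shown for a few members because both directions hold genes with a TATA-like element. The letters are the 60 bases before the annotated start, 5′ to 3′ on the gene's strand, from RefSeq promoter windows on GRCm38.p6, and capitals mark TATAAA or TATATA within 40 to 20 bases before the start. Oog3 and BB287469 rose, and so did Omt2b, which holds neither motif.
Oog3 (chr4:144162652-144162711, minus strand): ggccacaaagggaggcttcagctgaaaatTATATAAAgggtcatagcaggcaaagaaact
BB287469 (chr12:87816517-87816576, plus strand): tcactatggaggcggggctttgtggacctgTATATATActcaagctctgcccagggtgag
Omt2b (chr9:78327970-78328029, plus strand): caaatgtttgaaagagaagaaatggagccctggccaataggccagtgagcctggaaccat
Txnip and Zbed3 fell and hold TATATA, and Slbp fell and holds neither.
Txnip (chr3:96557897-96557956, plus strand): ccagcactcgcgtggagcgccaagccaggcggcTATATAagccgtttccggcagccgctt
Zbed3 (chr13:95323545-95323604, plus strand): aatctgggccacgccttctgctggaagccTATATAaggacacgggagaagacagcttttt
Slbp (chr5:33652575-33652634, minus strand): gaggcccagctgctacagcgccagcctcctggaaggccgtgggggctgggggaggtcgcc
TATAAA was searched on both strands, TATATA reads the same on both, and in Oog3 the 2 motifs overlap. Of the 19 named genes that gained or rose, 13 had a promoter sequence and 2 of these held either motif, and of the 20 that lost or fell, 17 had one and 2 held either motif. Over 27025 RefSeq promoters, 905 (3.35%) held one in the same window. A match is a run of letters, not a measured binding site. A comparison of promoter letters over all tested genes is void, because only 76.8% of them had a sequence.

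By fold, the strongest rises among genes that reached a mean of 10 cRPKM started from almost no reads. Tdpoz4, a speckle-type POZ gene of the 2-cell embryo, had 1 read over the 1-cell libraries and 7876 over the 2-cell libraries, with 61.67, 76.92, 73.38 and 66.2 cRPKM there. Its ratio of pooled reads was 8510, with a 95% counting interval from 1530 to 336000. The gene 1700013H16Rik had 0 reads at the 1-cell stage and 2691 at the 2-cell stage, at least 969-fold higher when 3 reads over the 4 libraries are taken as the floor. Exoc3l2, related to a subunit of the exocyst, went from 0.025 ± 0.0265 to 33.3 ± 5.55 cRPKM, and BB287469, an eIF1A-like gene of 2-cell embryos, from 0.0375 ± 0.0479 to 52.5 ± 6.92 cRPKM (SD, n = 4). Ubtfl1, a relative of the nucleolar factor UBTF, had 17.07, 23.17, 17.96 and 21.74 cRPKM at the 2-cell stage and at most 0.04 cRPKM before. Guca1a, a guanylate cyclase activator of photoreceptors, reached 28.9 ± 9.83 cRPKM from 4 reads over the 1-cell libraries, and Sp6, a zinc finger factor of epithelia, 26.3 ± 2.82 cRPKM from 18 reads. In every one of these genes each 2-cell library lay above each 1-cell library, as a description of genes chosen for a large rise. Gm5662 and Gm4799 had 0 reads at the 1-cell stage and were at least 222-fold and 170-fold higher, from 616 and 472 reads. The level of Gm5662, 733.9 ± 136.8 cRPKM at the 2-cell stage, is very high for so few reads and is therefore uncertain.

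The 10 strongest falls by fold among genes with at least 10 cRPKM at the 1-cell stage were of genes with different roles. Bub1b, the checkpoint kinase BUBR1, had 111.85, 148.64, 131.28 and 129.45 cRPKM and then 4.88, 4.69, 4.94 and 5.41 cRPKM, a 31.6-fold fall (log2 -4.98, SE 0.15, adjusted p = 1.6e-08). Nup93 and Nup107, scaffold proteins of the nuclear pore, fell 25.8-fold and 20.7-fold, from 206.7 ± 10.1 to 9.76 ± 1.1 and from 109.5 ± 9.53 to 6.46 ± 1.14 cRPKM (SD, n = 4 each). Txnip, the thioredoxin-interacting protein, had 372.28, 362.92, 414.64 and 406.61 and then 15, 14.36, 17.72 and 16.76 cRPKM, and its own log2 change differed by only 0.07 (SD) between injections. Each of these 4 genes was lower in all 2-cell libraries than in any 1-cell library, as a description of genes chosen for a large fall. Pabpn1l, an embryonic poly(A)-binding protein, fell 22.6-fold from 191.8 ± 18.8 to 10.3 ± 1.18 cRPKM. Zar1l, a relative of the zygote arrest gene Zar1, fell 21.8-fold from 163.5 ± 37.8 to 9.04 ± 2.1 cRPKM. Nfrkb, an INO80 complex subunit, fell 22.2-fold, the endonuclease gene Ercc5 31.3-fold and Gm813 21.1-fold. Akr1c18, a hydroxysteroid dehydrogenase, had the largest fitted fall, 53.2-fold, but was uneven: 6.51, 21.54, 27.12 and 20.92 and then 0, 0, 1.78 and 0.63 cRPKM.

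**Figure D2:**
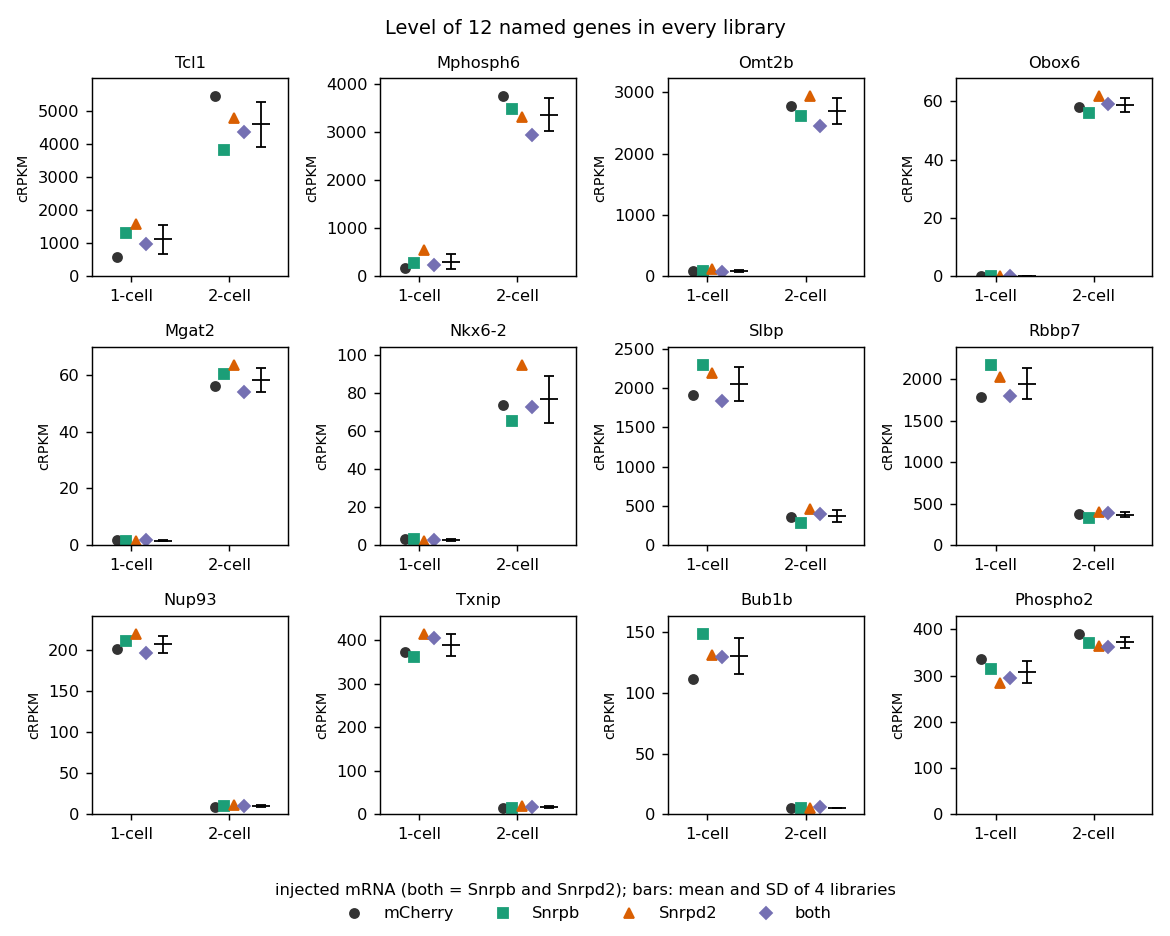
Level in cRPKM of 12 named genes in every library, 1-cell on the left and 2-cell on the right of each panel, with 1 symbol per injection and the mean and SD of 4 libraries as a bar; each panel has its own linear axis from 0. All genes shown but Phospho2 were chosen for, or seen to have, a large change, so the gap between their stages is a description. Phospho2 moves only from 307.5 to 371.8 cRPKM and was called higher with scaling to library totals but not with TMM.

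A set of 202 abundant genes showed little change under the TMM scaling, with at least 50 cRPKM at both stages, no call, and a 95% interval of the log2 change inside 0.5 either way. The 10 with the smallest change were Snu13, a U4 snRNA-binding protein, the growth factor gene Bmp6, the ubiquitin ligase gene March5, the phosphatase gene Phospho2, the signalling inhibitor gene Spry4, Rab18, Gm13103, Zfand6, Asb8 and Klhl8. Phospho2 had 336.83, 313.69, 283.82 and 295.64 and then 389.96, 369.63, 364.66 and 362.96 cRPKM, a log2 change of -0.00 (SE 0.10, adjusted p = 0.988). The 95% intervals of these 10 reached 0.227 to 0.305 to either side of the estimate. Their evenness belongs to the scaling: with library totals, 5 of them (Snu13, Bmp6, March5, Phospho2 and Zfand6) were called higher, each by 0.27 or 0.28 on the log2 scale.

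The number of exons in a gene's annotated transcript went with the direction of its change. Among tested genes, the share called higher fell from 60.8% of 502 single-exon genes through 56.5% (2 exons), 47.7% (3 to 4), 39.9% (5 to 8), 31.3% (9 to 12) and 28% (13 to 20) to 26.4% of 1982 genes with over 20 exons. The share called lower went from 17.9% to 40.1%, against 37.2% and 34.2% over all genes. Examples of single-exon genes that rose, picked after their values were seen, were Rpp25, a subunit of RNase P and MRP, from 0.752 ± 0.477 to 79.8 ± 14.5 cRPKM, and Mgat2, a Golgi glycosyltransferase, with 1.71, 1.47, 1.31 and 1.76 and then 55.91, 60.21, 63.39 and 53.87 cRPKM (30.9-fold). The chaperone gene Hspa2 rose 12.7-fold and the selenophosphate synthetase gene Sephs2 3.04-fold. Single-exon genes also fell, again with examples picked after their values were seen: the Rag GTPase gene Rraga fell 11.1-fold from 212.3 ± 16.6 to 23.8 ± 6.03 cRPKM, the termination factor gene Gspt2 10.6-fold, the transcriptional co-regulator gene Cited2 8.37-fold and the ubiquitin ligase adaptor gene Kbtbd7 4.21-fold (SD, n = 4 each).

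Which genes could be tested also differed with exon number. Of 1296 single-exon genes 38.7% had enough reads to be tested, against 91.9% of 2157 genes with over 20 exons, and a gene that is silent in zygotes is tested only if it rises. Among the 12856 tested genes with at least 10 reads in every 1-cell library, the share higher was 38% for single-exon genes, 38.9% for 2 exons, 37.2%, 31.2%, 25.8% and 22.7% for the classes between, and 22% for over 20 exons, while the share lower went from 31.7% to 43.9% and the median log2 change from 0.10 to -0.31. Of all genes with values, tested or not, 23.5% of single-exon genes, 31.1% of those with 3 to 4 exons and 24.3% of those with over 20 exons were higher, with no steady order, whereas the share lower rose from 6.94% to 36.8%. Among tested genes the order was also seen at a mean level of 1 to 10 cRPKM, from 62.7% to 21.6% higher, and among the shortest class of transcripts by length, from 55.6% for 1 exon to 22.4% for 13 to 20. At 10 to 100 cRPKM it was weaker and not steady, with 37.2% of single-exon genes higher and 43.6% lower, 42.9% of genes with 2 exons higher, 19% of those with 13 to 20 and 25.1% of those with over 20. At a mean level over 100 cRPKM it was not steady either, with 16 of 24 single-exon genes and 93 of 252 genes with 5 to 8 exons higher. In each injection taken alone the median change was 1.55 to 1.77 for single-exon and -0.42 to -0.03 for the longest class. The 6 library measures included 2 shares of this kind. Reads from genes with over 12 exons fell from 31.3% ± 1.62 to 27.6% ± 1.54 (exact permutation p = 0.0286, adjusted p = 0.0343, n = 4 each), a call that ended when Snrpb and Snrpd2 were kept in the totals (exact permutation p = 0.0571). Reads from single-exon genes outside the mitochondrial genome went from 0.877% ± 0.0227 to 0.93% ± 0.0657 and overlapped between stages (exact permutation p = 0.143, n = 4 each).

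**Figure D3:**
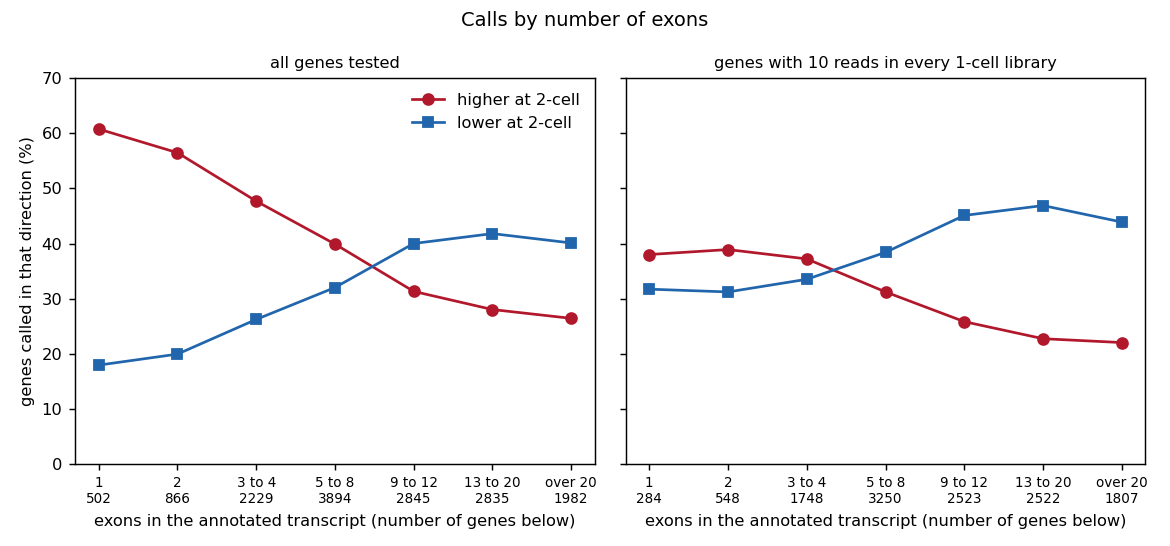
Share of genes called higher (circles) and lower (squares) at the 2-cell stage, in percent, by number of exons, for all tested genes on the left and for those with at least 10 reads in every 1-cell library on the right. The share higher drops from 60.8% to 26.4% on the left and from 38% to 22% on the right.

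Of 560 tested X-linked genes, 47.3% were higher and 26.6% lower. Within genes of over 8 exons these shares were 35.4% and 32.9%, against 28.6% and 41% for autosomal genes of the same class. Tested X-linked genes were also rarer, with a median 1-cell level of 1.65 cRPKM against 3.07 cRPKM over all tested genes. Of all tested genes under a mean of 1 cRPKM, 47.8% were higher and 11.1% lower. Whether X-linked genes differ from other genes of the same level was not tested. The share of all reads in X-linked genes nevertheless went down, from 2.73% ± 0.0541 to 2.38% ± 0.07 (exact permutation p = 0.0286, adjusted p = 0.0343, n = 4 each). On the Y chromosome 6 of 6 tested genes rose: Zfy1 and Zfy2, zinc finger transcription factors, the demethylases Kdm5d and Uty, the deubiquitinase Usp9y and the translation factor Eif2s3y. Their reads over the 1-cell libraries numbered 2, 1, 0, 21, 7 and 0, and over the 2-cell libraries 77, 171, 80, 289, 399 and 354. Eif2s3y was at least 127-fold and Kdm5d at least 28.8-fold higher with the same floor. In each of the 6 every 2-cell library was above every 1-cell library. The helicase gene Ddx3y, which was not tested, had 0 and then 42 reads, and the testis-determining gene Sry had 0 reads at both stages. The Y-linked levels stayed low, at most 1.18 cRPKM on average, and a gene tested only because it rose had to differ, so the count of 6 is a description.

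All 12 protein-coding genes listed from the mitochondrial genome, which is copied by its own polymerase, were higher at the 2-cell stage. Their median rise was 1.4 on the log2 scale, a relative median of 1.33, and they took 0.171% ± 0.0327 of reads at the 1-cell and 0.528% ± 0.0635 at the 2-cell stage (exact permutation p = 0.0286, adjusted p = 0.0343, n = 4 each). The complex I gene mt-Nd1 had 190.56, 179.94, 255.1 and 253.86 and then 823.11, 766.98, 798.35 and 902.89 cRPKM (3.12-fold, adjusted p = 1.24e-06). The smallest rise was that of mt-Nd3, 1.43-fold (adjusted p = 0.0187), whose stages overlapped, with 186.62 cRPKM in 1-cell embryos given both mRNAs and 163.02 in 2-cell embryos given Snrpb. Among nuclear genes for the same complexes, of 37 complex I genes 10 were higher and 16 lower, of 28 tested genes of complexes II to IV 9 and 8, and of 17 ATP synthase genes 4 and 4. Uqcrc2, a core protein of complex III, fell 13.7-fold. The enzymes of the citric acid cycle and pyruvate dehydrogenase fell more often, 15 of 22 with 4 higher and a relative median of -1.02.

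Among families of the RNA and protein machinery, the cytosolic ribosome had more genes higher than lower, and the tRNA synthetases, chaperonins and proteasome more genes lower than higher. Of 80 cytosolic ribosomal protein genes 67 were tested, of which 35 rose and 6 fell, with a relative median of 0.65, and their summed level went from 826.7 ± 102 to 1810 ± 285 cRPKM (SD, n = 4). Of 13 RNA polymerase II subunits 7 rose and 2 fell, with Polr2h up 4.57-fold and Polr2g down 2.08-fold. Aminoacyl-tRNA synthetases fell in 20 of 32 cases and rose in 6 (relative median -1.13), with opposite examples in the mitochondrial enzymes Aars2, 21.1-fold lower, and Mars2, 11.3-fold higher. Proteasome subunits fell in 25 of 38 cases and rose in 6, and their sum went from 2168 ± 231 to 1122 ± 86.4 cRPKM. Psma7, of the core particle, had 302.35, 231.98, 202.94 and 243.87 and then 32.67, 32.35, 34.44 and 34.42 cRPKM (8.8-fold). Every one of its 2-cell values lay below its lowest 1-cell value. Chaperonin and prefoldin genes fell in 10 of 15 cases, with Pfdn4 down 7.03-fold, although the chaperonin subunit Cct6a rose 14.5-fold from 1.65 ± 0.284 to 28.9 ± 2.06 cRPKM. Other families of protein turnover differed. Ubiquitin-conjugating enzymes and autophagy genes were near even, with 12 higher and 10 lower of 32, and 10 and 11 of 29. Of 49 ubiquitin-specific proteases 17 rose and 22 (44.9%) fell. F-box genes fell in 37 of 73 tested and rose in 18, and DNAJ and HSP70 chaperones fell in 28 of 53 and rose in 16. These shares lower, 50.7% and 52.8%, were near the 52.2% of all tested genes at a mean level of 10 to 100 cRPKM. Mitochondrial ribosomal protein genes fell in 43 of 75 cases and rose in 14.

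Of the transcription and RNA processing families that follow, all but the TAF family had more genes lower than higher, while single subunits moved in opposite directions. Nearly all their tested members had at least 10 reads in every 1-cell library, where 28.4% of all genes were higher and 41% lower. At a mean level of 10 to 100 cRPKM, 52.2% of tested genes were lower. The shares lower of Mediator (51.7%), cleavage and polyadenylation factors (54.5%), CCR4-NOT (54.5%) and helicases (55.8%) were near that, and that of the exosome (72.7%) was above it. Relative medians were -0.57 for Mediator, -0.22 for the TAF family and -0.55 for cleavage and polyadenylation factors. They were -0.59 for CCR4-NOT, -0.8 for the exosome and -0.61 for DEAD and DEAH box helicases. Mediator had 9 higher and 15 lower of 29 genes, with Med29 up 24.9-fold and Med17 down 19.7-fold, from 108.22, 77.91, 76.65 and 94.4 to 4.77, 5.26, 5.81 and 6.01 cRPKM. The TAF family had 12 higher and 11 lower of 26. Taf7l, a germ cell form of TAF7, went from 1 read to 1664 reads, and Taf1b, of polymerase I, fell 12.7-fold. Of 22 cleavage and polyadenylation factors 6 rose and 12 fell, and the RNA kinase gene Clp1 rose 43.5-fold, from 1.25, 0.69, 0.76 and 1.23 to 48.5, 51.65, 52.13 and 49.56 cRPKM. Of 11 CCR4-NOT subunits 4 rose and 6 fell: the catalytic subunit gene Cnot8 rose 9.21-fold, from 17.98, 17.29, 15.84 and 15.71 to 169.42, 198, 192.27 and 186.63 cRPKM, and Cnot11 fell 5.18-fold. The summed level of the 11 subunits nevertheless went up, from 803.2 ± 37 to 1358 ± 51.1 cRPKM (SD, n = 4). The exosome, the main 3′ to 5′ RNA-degrading complex, had 8 of 11 subunits lower and 1, the nuclease Dis3, higher at 3.24-fold. Of 52 tested DEAD and DEAH box helicases 29 fell and 12 rose, with Ddx43 up 99.1-fold and Ddx55 down 14.1-fold.

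Genes that copy and carry chromosomes and that form the nuclear pore fell as groups. Of 42 replication licensing and fork proteins 34 fell and 4 rose (relative median -1.14), and their summed level went from 2971 ± 80.1 to 1945 ± 62.3 cRPKM (SD, n = 4). Mcm10, which helps to activate the replicative helicase, had 58.2, 53.85, 59.91 and 58.13 and then 4.63, 4.09, 5.26 and 5.49 cRPKM (14.4-fold), and the clamp loader gene Rfc5 rose 2.36-fold. Of 25 nuclear pore genes 17 fell and 3 rose, with a relative median of -1.24, and Tpr, of the nuclear basket, was the strongest riser at 1.67-fold. Centromere and kinetochore genes fell in 19 of 30 cases and rose in 7, with Ndc80 down 8-fold and Cenpb up 10.6-fold. Cyclins were split, 15 higher and 12 lower of 29, with Ccnjl up 102-fold and Ccno down 7.9-fold. Of 45 clustered histone genes, most of whose mRNAs lack a poly(A) tail, 18 were tested, 2 rose and 8 fell.

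**Figure D4:**
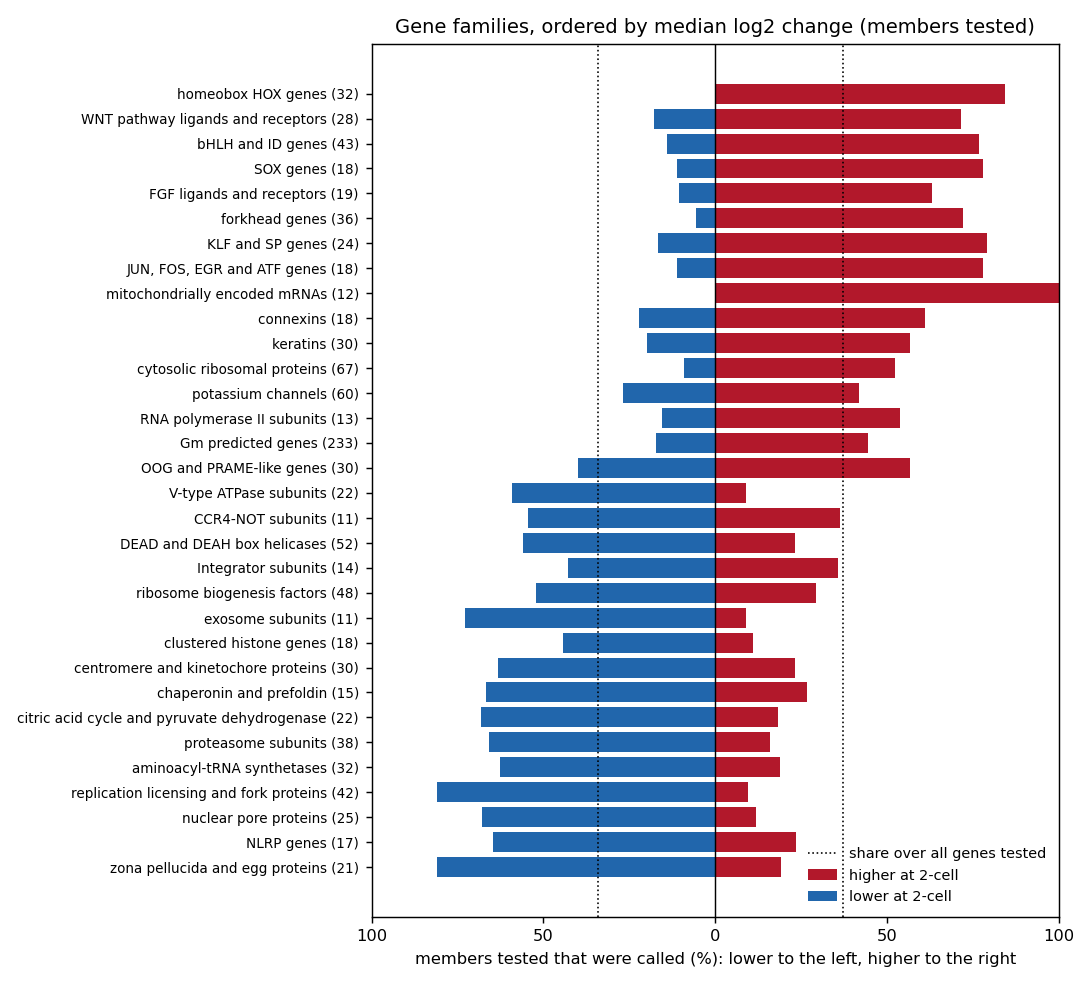
Share of the tested members of each gene family called higher (bars to the right) or lower (bars to the left) at the 2-cell stage, in percent, for the families with the highest and the lowest median change and at least 11 tested members; the number tested is in parentheses and dotted lines mark the shares over all genes, 37.2% and 34.2%. Transcription factor and signalling families fill the top, and oocyte, replication, nuclear pore and proteasome families the bottom.

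Many developmental transcription factors and signals were rare at the 1-cell stage, and a rare gene is tested mainly if it rises: of all tested genes with a mean level under 1 cRPKM, 47.8% were higher and 11.1% lower. For these families the counts among members with at least 10 reads in every 1-cell library are therefore given too, where 28.4% of all such genes were higher and 41% lower. They were 7 higher and 0 lower of 10 for HOX, 6 and 2 of 10 for SOX, 11 and 2 of 21 for forkhead, 16 and 6 of 25 for bHLH and ID, and 16 and 4 of 20 for KLF and SP genes. They were 13 and 2 of 17 for the JUN, FOS, EGR and ATF group, 7 and 5 of 15 for WNT, 3 and 2 of 10 for FGF and 4 and 4 of 11 for connexin genes. The HOX genes, which set the body axis in later embryos, showed this in all 4 clusters: of 38 genes 32 were tested, 27 rose and 0 fell, with 5 not called. Over all 38, tested or not, 28 had at least 10 reads in the pooled 1-cell and 37 in the pooled 2-cell libraries, and their reads summed to 3031 to 4042 per 1-cell library and 8072 to 11542 per 2-cell library. Most of the 1-cell reads came from Hoxa7, at 28.6 ± 2 cRPKM, which reached 41.4 ± 4.82 cRPKM and was not called (adjusted p = 0.0689). Hoxd1 had 0.08, 0.03, 0.04 and 0.07 and then 10.63, 10.3, 13.54 and 8.25 cRPKM (162-fold, adjusted p = 2.79e-08). Hoxd1, Hoxb9 and Hoxa10 were picked after their values were seen. Hoxb13, at the 5′ end of its cluster, had 2 reads and then 1487, with 4.07 ± 1.79 cRPKM, and Hoxb9 and Hoxa10 reached 4.62 ± 1.22 and 5.93 ± 0.57 cRPKM. For Hoxd1, Hoxb13, Hoxb9 and Hoxa10 every 2-cell library lay above every 1-cell library. The median 2-cell level of the 38 genes was 1.08 cRPKM, and 20 of them reached 1 cRPKM. The relative median of the tested HOX genes, 4.11, was 2.17 when 0.1 was added to each cRPKM value before taking logs, since an added constant shrinks the changes of rare genes.

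Other factor families also had more genes higher than lower. Of 18 SOX genes 14 rose and 2 fell: Sox11, of neural progenitors, had 0 reads at the 1-cell stage and 7.63, 5.33, 8.89 and 8.05 cRPKM at the 2-cell stage, at least 882-fold higher, and Sox5 fell 2.83-fold. Of 43 forkhead genes 36 were tested, 26 rose and 2 fell, with Foxf2 at 0 reads and then 779, and Foxo1, the insulin-responsive member, falling 2.54-fold from 133.9 ± 9.27 to 63.8 ± 3.26 cRPKM. Of 49 bHLH and ID genes 43 were tested, 33 rose and 6 fell. KLF and SP genes rose in 19 and fell in 4 of 24 tested, but their summed level went down, from 1116 ± 34.5 to 817.1 ± 52.5 cRPKM, and Klf17, the most changed of those that fell, went from 932.4 ± 36.8 to 470.8 ± 32.5 cRPKM. The group of JUN, FOS, EGR and ATF genes had 14 higher and 2 lower of 18 tested. It was led by Ier5 at 46.5-fold, while Atf6, a stress sensor of the endoplasmic reticulum, fell 4.7-fold. The 14 NKX homeobox genes, taken up after their values were seen, had 10 tested and 10 higher, but only 2 of the 10 had at least 10 reads in every 1-cell library, and the others were tested through the stage where they are high, so the count is a description. Nkx6-2 had 3.36, 3.03, 2.13 and 2.66 and then 74.16, 65.69, 94.85 and 72.87 cRPKM (22.6-fold), and Nkx2-4, with 0 reads before, was at least 221-fold higher at 2.37 ± 0.612 cRPKM. By contrast, of 341 tested Zfp zinc finger genes 125 rose and 124 fell, and of 37 nuclear receptors 12 and 11, both near the background.

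Signalling families differed among themselves. Of 28 tested WNT ligands and receptors 20 rose and 5 fell. The receptor Fzd4 had 0.14, 0.1, 0.05 and 0.16 and then 26.4, 26.7, 35.82 and 31.7 cRPKM (221-fold), and the ligand Wnt7a fell 2.79-fold. Of 19 tested FGF ligands and receptors 12 rose and 2 fell, with Fgf3 up 161-fold to 2.53 ± 0.879 cRPKM and Fgf8 down 3.86-fold from 29.9 ± 11.9 to 8.99 ± 1.16 cRPKM (SD, n = 4 each). TGF-beta, BMP and GDF genes had 12 higher and 9 lower of 32, close to the background, with Nodal, which patterns the later embryo, at 0 and then 290 reads (at least 104-fold higher) and Inhba 17.6-fold lower. Inhba is also on the list of cumulus and granulosa markers, and its 1-cell values of 0.93, 2.23, 2.51 and 6.58 cRPKM were uneven. Connexins, the channels of gap junctions, rose in 11 and fell in 4 of 18 tested, although their summed level went from 174.3 ± 36 to 49.95 ± 5.34 cRPKM. Keratins rose in 17 of 30 tested, with Krt19 up 97-fold. Of 50 tested G protein-coupled receptors of the GPR series 19 rose and 14 fell, of 31 cadherins and claudins 10 and 7, and of 28 collagens 6 and 9. Solute carriers, the largest family of transporters, had 108 higher and 95 lower of 298, close to the background of 37.2% and 34.2%. Members with at least 10 reads in every 1-cell library gave other counts, against 28.4% higher and 41% lower over all such genes. They were 6 higher and 14 lower of 34 GPR genes, 4 and 7 of 25 cadherins and claudins, and 0 and 8 of 19 collagens. For TGF-beta, BMP and GDF genes they were 5 and 9 of 23, for keratins 9 and 6 of 19, and for solute carriers 64 and 95 of 236.

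Families of oocyte and early embryo genes split by member. Of 21 zona pellucida and egg protein genes 17 fell and 4 rose, and of 17 tested NLRP genes 11 fell and 4 rose. The zygote arrest gene Zar1 had 948.76, 998.55, 908.85 and 823.28 and then 78.55, 76.53, 105.64 and 66.06 cRPKM (13.8-fold). Padi6 and Nlrp5, of the subcortical maternal complex, fell 6.36-fold and 4.26-fold, and Kit, the receptor of stem cell factor, only 1.7-fold. Of 30 tested OOG and PRAME-like genes 17 rose and 12 fell: Oog3 rose while Oog4 fell 12.7-fold, from 734.5 ± 72.6 to 69.9 ± 3.82 cRPKM, and Pramel7 went from 7 to 5630 reads. Of the 21 OOG and PRAME-like genes with at least 10 reads in every 1-cell library, 8 rose and 12 fell. In the OBOX group Obox2 fell and Obox6 rose. The 5 USP17-like deubiquitinase genes all rose, with Usp17lb up 90.9-fold. Only 2 of the 5 had at least 10 reads in every 1-cell library, so the count is a description. Of genes known only as Gm models 104 rose and 40 fell of 233 tested, and of RIKEN clones 162 and 81 of 361. Values were given for 863 and 681 genes of these 2 kinds, so many were not tested for lack of reads. Among those with at least 10 reads in every 1-cell library, 34 rose and 40 fell of 142, and 73 and 81 of 251. Over all such genes 28.4% were higher and 41% lower, so the excess of rises was not seen there. Reads that fit several near-identical copies make single members of these families uncertain.

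The stage changes of the 4 injections were compared with each other. The gene-by-gene changes of the 4 injections, which share no library, correlated pairwise between 0.892 and 0.908 over 15398 genes, given as a description across genes, which are not independent. The number of genes changed at least 2-fold up, among those with 50 reads in either library, was 3696 (mCherry), 3506 (Snrpb), 3621 (Snrpd2) and 3446 (both), and down 3381, 3321, 3076 and 3276. Of the called genes, 67 moved against the call in the mCherry pair, 50 in the Snrpb pair, 129 in the Snrpd2 pair and 25 in the pair given both. Whether the change differs between mCherry embryos and embryos given Sm mRNA was tested in a model with 4 groups: of 16865 genes 0 (0.0%) were called by edgeR at an adjusted p of 0.05, 1648 (9.77%) had an unadjusted p under 0.05, and DESeq2 called 31. In simulated counts this test found 7.46% of genes whose change differed by 1 on the log2 scale and 58.2% of those differing by 2, so differences of that size can be missed. In this design the mCherry arm is 1 library per stage, assumed to vary like the others, and the smallest edgeR adjusted p was 0.381.

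The 4 own log2 changes of a gene had a median SD of 0.3 over 11239 genes with at least 100 reads in a library of every injection, and 446 genes (3.97%) exceeded 1. Lox, the collagen cross-linking lysyl oxidase, was the most uneven, with 0.01, 0.7, 0.21 and 0.63 and then 0.61, 0.22, 0.59 and 0.11 cRPKM: its own log2 changes were 5.67, -1.97, 1.13 and -2.73, and it was not called. For Aars2 the level was 2.43, 1.05, 1.62 and 1.83 and then 0, 0.16, 0.12 and 0.12 cRPKM, with an own change of -9.72 in the mCherry pair and -4.18 to -2.98 in the others. Sox9, Slc1a5, Tacr3, Galnt4, Pcdh1 and Fabp3 rose and Baiap3 and Akr1c18 fell in all 4 injections, by amounts with an SD of 2.62 to 3.4 on the log2 scale, each with a library at or near 0 reads. Among the genes with the smallest p for a difference, Nrarp, a feedback inhibitor of Notch, had the most reads: its levels were 3.6, 1.64, 1.89 and 1.85 and then 23.01, 27.96, 31.95 and 26.06 cRPKM, with own changes of 2.45, 3.75, 3.76 and 3.57, and a difference of 1.25 (SE 0.24, edgeR adjusted p = 0.381). The hexokinase gene Hk1 had the opposite pattern, with an own change of 4.43 in mCherry and 1.3 to 1.75 in the other embryos. Neither passed the adjusted threshold, and both differences rest on the single mCherry library of each stage.

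**Figure D5:**
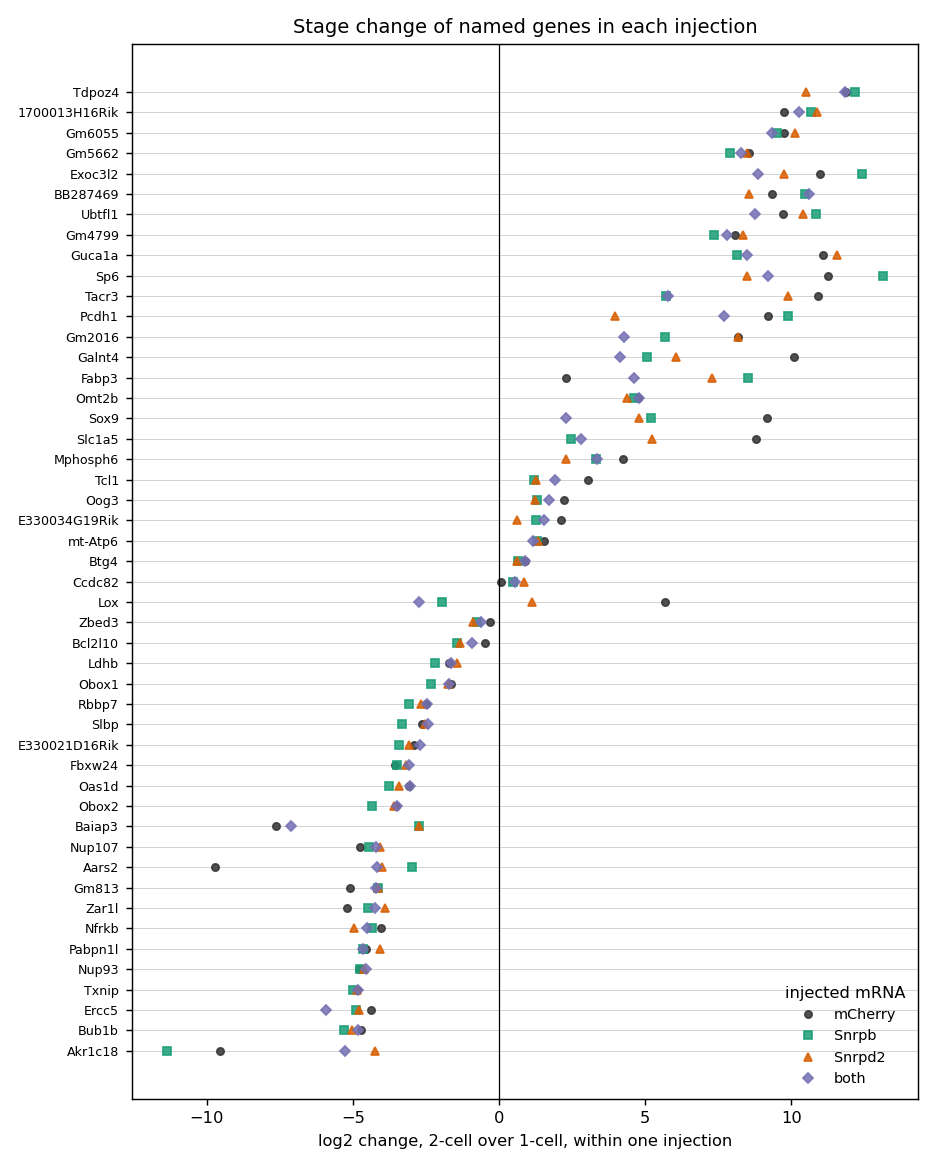
Log2 ratio of 2-cell over 1-cell reads within each injection (x axis; 1 symbol per injection, prior of 0.5 reads) for the named genes with the largest gains, losses, rises, falls and spread, ordered by fitted change. Symbols of a gene such as Txnip or Nup93 lie close together, whereas those of Lox lie on both sides of 0.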

How the data were processed

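Polyadenylated RNA of 8 pools of mouse embryos was sequenced on a HiSeq2500 after library preparation with the SMARTer Stranded kit, per the labels' protocols. The authors deposited, for each library, read counts per gene and cRPKM, an RPKM corrected for the mappable length of the gene. Per the submitters' processing notes, reads were placed on mm9. Which aligner and gene models were used, and how multimapping and strand were handled, is not given in the sources used here, so overlapping and near-identical genes are uncertain. Of 22667 identifiers, 1114 had no value. The cRPKM were whole counts over an effective length and the library total, within 0.712% for the 5138 genes with most reads.

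Counts were scaled by TMM, low genes were removed with filterByExpr, and edgeR 4.0.16 (R 4.3.3) was fitted with injection and stage as terms over 8 libraries (3 residual degrees of freedom), by the quasi-likelihood test with Benjamini-Hochberg adjustment at 0.05 over all genes tested. The difference between injections used 4 groups. Fits with DESeq2 1.42.0 and limma 3.58.1, other scalings and filters, no block and each injection left out were alternatives. In simulated counts the stage fit recovered 80%, 100% and 100% of genes changed by 1, 2 and 3 on the log2 scale, and the fit of differences 7.46%, 58.2% and 98.5%. The simulation changed only a small part of 15367 genes, up and down alike, with the same dispersion for all. In the data most tested genes changed, so these shares do not cover errors that come from the scaling. Library measures were compared with exact two-sided permutation tests that did not pair libraries by injection (scipy 1.17.1). Counting intervals cover counting error only, since reads carry no molecular identifiers. Exon numbers came from GENCODE vM21 by gene identifier, for 98.4% of tested genes, and promoters from RefSeq by symbol.

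Members and gene lists were chosen with earlier results of these data known. Named genes, never Snrpb or Snrpd2, were the 10 largest gains and the 10 largest losses of mean cRPKM and, among genes with at least 10 cRPKM at one stage, the 10 largest log2 rises and falls, all called and moving the same way in 4 injections. They were also the 10 abundant genes with the smallest change, the 10 with the largest spread of own changes (prior of 0.5 reads), the most changed called member in each direction of each of 76 families, the 5 genes of each sign with the smallest p for a difference between injections, and members of marker lists. Other genes are marked as picked after their values were seen or belong to a group given whole, such as the Y-linked and mitochondrial genes. Whether the same injection moves both stages alike was checked by correlating the deviations from the stage means, which gave 0.064 (mCherry), -0.145 (Snrpb), -0.314 (Snrpd2) and 0.16 (both).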

Additional observations from a re-analysis of the deposited data

Results flagged for a closer look

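In 142 groups of 4 libraries, covering the library measures and the 67 genes named for the largest gains, losses, rises and falls, the smallest changes, the largest spread and the smallest p for a difference between injections, 17 had 1 library far from the other 3 by Dixon's test at the 95% level. Genes named only as members of families or marker lists were not examined. Chance alone gives about 1 in 20 such groups. At the 1-cell stage the mCherry library stood apart for A630001G21Rik (0.14 cRPKM), Alox12b (0.08 cRPKM), Eva1a (0.26 cRPKM), Grin2d (0.0 cRPKM), Nrarp (3.6 cRPKM) and Zfand6 (218.15 cRPKM). At the 2-cell stage it stood apart for Col6a1 (0.06 cRPKM), E330034G19Rik (2780.38 cRPKM) and Epdr1 (0.26 cRPKM). All of these but Zfand6 and E330034G19Rik were named for a small p of the difference between mCherry and the other embryos, which selects a mCherry library that stands apart. The Snrpb library stood apart for Obox2 (4153.97 cRPKM at the 1-cell stage) and for the share of reads in mitochondrial genes (0.433% at the 2-cell stage). The Snrpd2 library stood apart for Pabpn1l (163.77 cRPKM), Pcdh1 (0.07 cRPKM) and Tdpoz4 (0.03 cRPKM, 1 read) at the 1-cell stage, and for Klhl8 (526.55 cRPKM) at the 2-cell stage. The library given both mRNAs stood apart at the 1-cell stage for Gm2016 (101.09 cRPKM) and Ubtfl1 (0.04 cRPKM).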

How the results depend on the processing

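Across the alternatives the number of higher genes was 4904 to 7012 and of lower genes 4157 to 5473, and no called gene was called the opposite way. Without the replicate block, that is without pairing by injection, 5934 genes were higher and 5473 lower. Leaving out 1 injection gave 5283 to 5599 and 4706 to 5167. A filter given the model matrix, chosen after the data were seen, gave 6198 and 5198. DESeq2 called 31 genes for a difference between injections, where edgeR called 0. Without a filter on low counts, the share of single-exon genes called higher exceeded that of genes with over 20 exons by 12.9 percentage points, against 34.3 with it. Bmp6, March5, Phospho2 and Snu13 changed by 0.28 and Zfand6 by 0.27 under library totals and with limma on log2(cRPKM + 0.1) or + 1, except Bmp6 at 0.27 with + 1, and Gm13103 by 0.27 with limma. With 0.1 added, relative medians became -0.04 for solute carriers, -0.38 for F-box genes, 2.17 for HOX, 1.54 for forkhead, 2.38 for SOX, 2.1 for bHLH and ID, 2.01 for WNT and 1.93 for FGF genes, 0.23 for potassium channels, 0.39 for Gm and 0.3 for RIKEN genes. The difference between stages without 1 injection, where an exact test of 3 against 3 libraries cannot go below p = 0.1, was 1616 to 1740 for genes at 1 cRPKM. It was 4.06 to 5.37 points for the share of the 10 top genes, -4.5 to -2.73 for genes of over 12 exons, 0.339 to 0.377 for mitochondrial and -0.375 to -0.3 for X-linked genes. With Snrpb and Snrpd2 kept in the totals, the difference for genes of over 12 exons was -3.24 points (exact permutation p = 0.0571). The cause of these differences was not tested. One library per injection and stage limits the comparison between injections.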
